A study of Homo sapiens with 24 samples.

Results

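Polysome-associated RNA of PANC-1 cells exposed to CID661578 was compared with that of cells given DMSO, in 8 of the 24 libraries of the series. PANC-1 is an established human line grown from a ductal carcinoma of the pancreas, so the results describe 1 tumour line and not pancreatic tissue. The libraries were chosen by their labels as the polysome fraction of 4 DMSO and 4 CID661578 plates, and the exposure lasted 6 h at 40 µM CID661578 or with the vehicle. Polysome-associated RNA was the pool of gradient fractions collected for mRNAs with more than 3 ribosomes. Whether other RNAs in this pool carried ribosomes was not tested. The 4 total cytosolic RNA libraries of each of these groups, and 4 polysome libraries of cells given 5 µM cercosporamide for 6 h, served for comparison. The labels give RPMI as the medium and the methods give DMEM. Of 54583 genes in the table, 30288 had a count of 0 in all 8 polysome libraries and 9837 had a count of 0 in some of them, which left 14458 tested genes. Of these, 14418 were nuclear-encoded, and 40 were genes of the mitochondrial genome or their nuclear copies. Both classes are described apart.

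The study asked whether CID661578 acts through MNK2, the kinase encoded by MKNK2. MNK1 and MNK2 bind the scaffold eIF4G and phosphorylate eIF4E, the protein that holds the cap of an mRNA within the eIF4F complex. Cytosolic mRNAs with many ribosomes sediment deep in a sucrose gradient, so the level of an mRNA in the pooled fractions depends on both its abundance and its ribosome load. The mRNAs encoded in the mitochondrial genome are translated inside the organelle by mitochondrial ribosomes, without a cap and without eIF4F. How these mRNAs came into the pooled fractions was not tested, so their level there is not read as a ribosome load.

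The 8 polysome libraries held 9268041 to 11428854 reads on genes. Keratins KRT8, KRT18 and KRT19 were abundant in every library, and none of 8 tested duct markers passed the test, with a summed level of 12235 to 19216 CPM, the count scaled to the normalized library size, in DMSO and 11938 to 16786 CPM in CID661578. The duct genes ONECUT1 and CFTR had no read in any of the 8 libraries, for which a count of 0 allows up to 3 reads, or 0.262 to 0.324 CPM, by counting error alone. The acinar markers reached a summed level of at most 0.273 CPM and the 6 endocrine markers had no read. Each DMSO library correlated with the CID661578 library of its own replicate number across genes, after removal of group means, with r of 0.154, 0.507, 0.352 and 0.137 for replicates 1 to 4, and the replicate number was kept as a block. Replicates 1 and 4 were not told apart by this check, since DMSO replicate 4 correlated with CID661578 replicate 1 at 0.220 and DMSO replicate 1 with CID661578 replicate 4 at 0.207. DMSO replicate 3 stood apart from the other DMSO libraries. Its genes of the integrated stress response lay 2.16 higher in median on the log2 scale than the mean of the other DMSO libraries, whereas the corresponding values were -0.74, -0.60 and -0.56 for DMSO replicates 1, 2 and 4. The polysome changes of the genes of this list are therefore given with and without replicate 3.

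All 13 mRNAs encoded in the mitochondrial genome were lower in polysome-associated RNA after CID661578. Their log2 changes ran from -1.54 to -4.14 with a median of -2.56, and in none of them did the libraries of the groups overlap. Of all 14458 genes, 5.77% were called lower and 7.26% higher at the threshold used throughout, a Benjamini-Hochberg adjusted p below 0.15 in the quasi-likelihood test of edgeR, and 2.91% were lower and 3.33% higher in all libraries of 1 group than in any of the other. The share of polysome reads that fell on these 13 mRNAs was 1.59%, 1.63%, 1.18% and 1.65% in DMSO replicates 1 to 4 and 0.304%, 0.215%, 0.223% and 0.292% in CID661578 replicates 1 to 4. Every CID661578 library lay below every DMSO library. The mean share was 1.51% ± 0.224 (SD, n = 4) in DMSO and 0.258% ± 0.0462 (SD, n = 4) in CID661578, a 5.85-fold difference (two-sided exact permutation test, p = 0.0286, the smallest value that 4 against 4 libraries allow).

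ND3, a subunit of respiratory complex I (GRCh38 MT:10059-10404), changed most among the 13. Its level was 202, 214, 120 and 283 CPM in DMSO replicates 1 to 4 and 8.94, 10.0, 18.5 and 8.88 CPM in CID661578 replicates 1 to 4. The highest CID661578 library and the lowest DMSO library were both of replicate 3, and the groups stayed separate. The change was -4.14 ± 0.27 (SE) on the log2 scale, or 17.6-fold lower (adjusted p = 2.6e-10).

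CYTB, the only subunit of complex III that the mitochondrial genome encodes (GRCh38 MT:14747-15887), measured 3402, 2864, 3012 and 3262 CPM in DMSO and 528, 285, 346 and 487 CPM in CID661578. It was 7.83-fold lower (log2 change -2.97 ± 0.18, adjusted p = 1.4e-10). The catalytic cytochrome oxidase subunits COX1 and COX2 and the subunit COX3 changed by -2.56, -2.55 and -2.89. The ATP synthase subunits ATP6 and ATP8, whose reading frames overlap in 1 transcript, changed by -2.59 and -2.31. Among the other subunits of complex I, ND6, the only one of the 13 mRNAs transcribed from the light strand, changed by -2.87 and ND5 by -2.67, while ND2, ND4L, ND4 and ND1 changed least, by -2.03, -1.88, -1.56 and -1.54. ND1 still measured 281 to 404 CPM in DMSO and 104 to 131 CPM in CID661578.

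**Figure D1:**
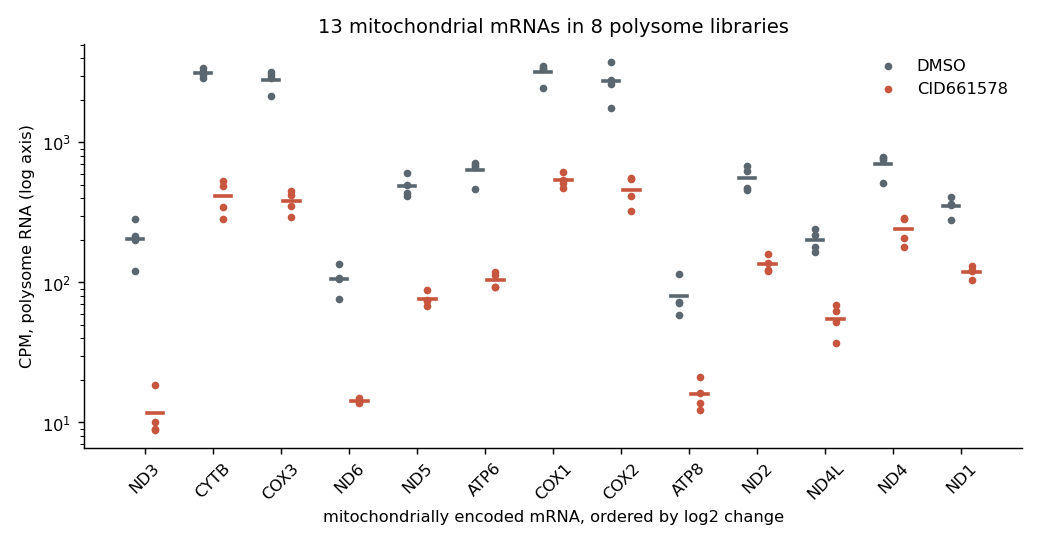
Level of each of the 13 mitochondrially encoded mRNAs (CPM, log axis) in the 4 DMSO (grey) and 4 CID661578 (red) polysome libraries, with 1 point per library and a bar at the group mean, ordered by log2 change. No CID661578 point reaches a DMSO point of the same mRNA, and the gap is widest for ND3 and narrowest for ND1.

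The rRNAs of the mitochondrial ribosome differed from each other. The 12S rRNA gene RNR1 measured 779, 1726, 1489 and 1534 CPM in DMSO and 503, 816, 1150 and 432 CPM in CID661578, so that the groups overlapped (log2 change -0.98 ± 0.20, adjusted p = 0.0047). The 16S rRNA gene RNR2 measured 16139 to 36639 CPM in DMSO and 24301 to 36344 CPM in CID661578 (log2 change 0.15 ± 0.21, adjusted p = 0.75). The values of both rRNAs came after the removal of rRNA reads by the authors, and how that step acted on them was not tested.

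Of 22 mitochondrial tRNA genes, 11 had reads in all 8 libraries, and 10 of these were lower and 1 was higher. TRNA, the alanine tRNA, was lowest of them, with 31.4, 23.0, 11.9 and 11.3 CPM in DMSO and 0.804, 0.727, 0.0905 and 1.28 CPM in CID661578 (log2 change -4.70 ± 0.36, adjusted p = 3.5e-09). TRNP, TRNN and TRNS1 changed by -3.71, -3.63 and -3.47, and their groups did not overlap. TRNE was the gene that was higher, with 4.59, 2.95, 1.07 and 2.07 CPM in DMSO and 6.23, 4.18, 6.24 and 4.34 CPM in CID661578. This gene was named after its values were seen. Its groups overlapped, and its call (log2 change 1.05 ± 0.34, adjusted p = 0.077) was lost without replicate 3 (0.64, adjusted p = 0.40). Of 14 tested nuclear copies of mitochondrial genes, 12 were lower, such as MTCO1P12 with a change of -2.53. Reads with several alignments were counted at each of them, so these copies share reads with the mitochondrial genes and are no separate measurement.

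The 13 mitochondrial mRNAs moved less in total RNA, in median. Across 14601 genes tested in the total fraction, 0.884% were called higher and 0.342% lower with CID661578, and 2 of the 13 mitochondrial mRNAs were called lower, with a median log2 change of -0.43 over the 13. Their share of total reads was 4.00% ± 0.962 in DMSO and 2.76% ± 0.877 in CID661578 (SD, n = 4 each; two-sided exact permutation test, p = 0.114). The polysome share divided by the total share of the same plate was 0.404 ± 0.157 in DMSO and 0.102 ± 0.0354 in CID661578 (SD, n = 4 each; two-sided exact permutation test, p = 0.0286). The difference of both changes was tested as an interaction over the 13667 genes with reads in all 16 libraries, of which 0% were called higher and 0.168% lower in edgeR's quasi-likelihood test. Of the 23 genes called lower, 19 were mitochondrial genes or their copies, 10 of the 13 mRNAs among them, and the median difference over the 13 was -2.18. CYTB differed by -2.41 ± 0.34 (adjusted p = 0.0027) and ND3 by -2.89 ± 0.33 (adjusted p = 0.0014). ND1, ND4 and ND4L did not pass this test, with -1.24, -1.09 and -1.43. All 22 mitochondrial tRNA genes were tested in total RNA, against 11 in the polysome comparison. There 9 were called lower and 1 higher, with a median of -1.11. TRNS1 was the only mitochondrial tRNA gene that passed the test of the difference. TRNP was lower in total RNA by nearly as much (-3.64) as in polysome-associated RNA.

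Cercosporamide, which was used at another dose, strongly inhibited MNK2 in the kinase assays of the study, and MNK1 and JAK3 in part. CID661578 did not change the activity of MNK2, MNK1 or JAK3 in those assays. In the polysome fraction of cells given cercosporamide, the share of the 13 mRNAs was 0.992%, 0.591%, 0.452% and 0.498% in replicates 1 to 4. Each of these 4 values lay between those of the DMSO and the CID661578 libraries. Between CID661578 and cercosporamide, 12.6% of 12554 genes were called higher and 12.2% lower in edgeR's quasi-likelihood test, and 11 of the 13 mRNAs were lower with CID661578, with a median of -1.17. The doses differ, and cercosporamide replicate 4 held only 1592459 reads, where the next lowest library of its group held 10661874.

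Among nuclear-encoded genes, 1049 were higher and 798 lower in polysome-associated RNA with CID661578, and most changes were small. The median log2 change of the called genes was 0.68 for those higher and -0.67 for those lower, and 185 and 121 of them changed by more than 2-fold. The libraries of both groups stayed apart in 355 of the genes higher and 253 of those lower. Without the replicate block 69 were higher and 20 lower, and the stress response, hypoxia and heat shock lists described next then held 2 higher, 5 higher and 3 lower genes. Without replicate 1, 3 or 4 the counts were 533 and 497, 532 and 319, and 689 and 282. Protein-coding genes made up 953 of the genes higher and 737 of those lower, out of 11332 tested, and long non-coding RNAs 22 and 8 of 521. In total RNA 127 nuclear-encoded genes were higher and 37 lower, and 57 and 18 of the genes called in polysome-associated RNA were called in the same direction there. No nuclear-encoded gene was called higher in the difference of polysome and total change, and 4 were lower, all of the SNAR family of small non-coding RNAs. This count rested on replicate 1, without which 320 were higher and 505 lower. At an unadjusted p below 0.05 in the same edgeR test, 706 were higher and 501 lower. SNAR genes took 0.094% to 0.139% of total RNA reads in DMSO and 0.134% to 0.459% in CID661578. In the 8 polysome libraries they took 0.0023% to 0.0070%. Reads with several alignments were counted at each of them, so genes of 1 family can share reads.

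**Figure D2:**
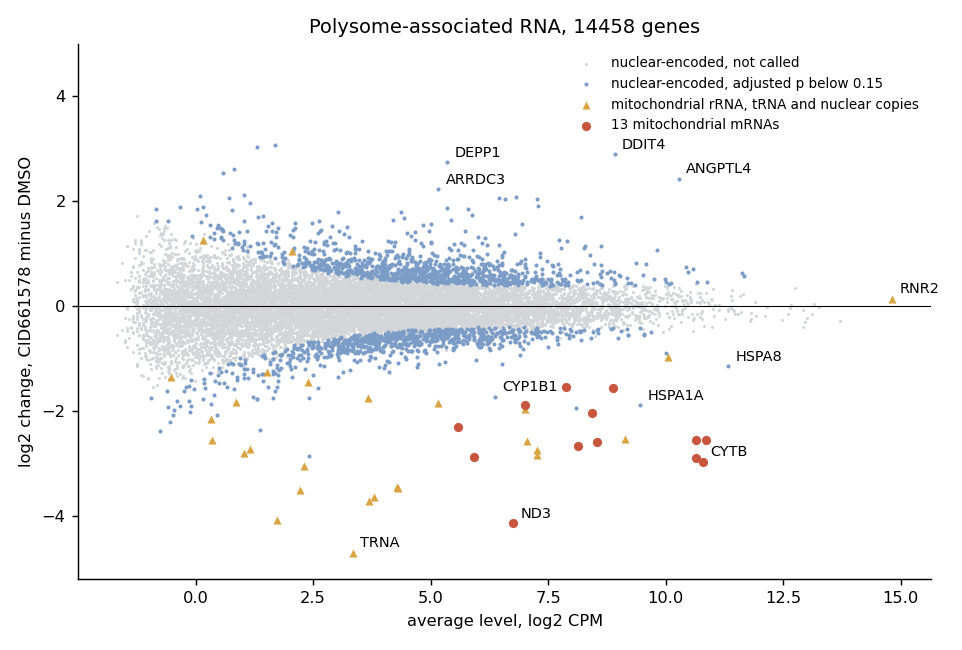
Log2 change with CID661578 (vertical axis) against average level (log2 CPM, horizontal axis) for the 14458 tested genes in polysome-associated RNA. Nuclear-encoded genes called at an adjusted p below 0.15 are blue, the 13 mitochondrial mRNAs are red circles and other mitochondrial genes and copies are yellow triangles. The red circles all lie below -1.5, while RNR2 sits at 0.15.

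The base composition of the called genes differed, and it moved with the libraries. Transcripts of the genes higher had a median GC content of 39.0%, those lower 57.1% and those not called 48.2%. The slope of the log2 level on GC content, per 10% of GC, was 0.016, 0.27, 0.13 and 0.061 in DMSO replicates 1 to 4 and -0.22, 0.24, -0.22 and -0.28 in CID661578 replicates 1 to 4. The slope was therefore negative in 3 CID661578 libraries and positive in CID661578 replicate 2 and in the 4 DMSO libraries. After the GC trend of each library was removed, with the replicate block kept, 331 nuclear-encoded genes were higher and 265 lower, of which 288 and 210 were also called without that step. The part of amplification, sequencing or translation in this trend was not tested. The 13 mitochondrial mRNAs were all called lower with the trend removed.

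Most genes of the integrated stress response were higher, and DDIT4, DDIT3, ATF3 and ATF4 were among the 12 largest rises of the nuclear-encoded genes at an average of log2 CPM 3 or more whose 4 pairs moved in 1 direction. This response begins with phosphorylation of the initiation factor eIF2, which lowers general initiation and favours translation of ATF4, and ATF4 then activates genes of amino acid supply, redox control and cell death. Of 24 tested genes of the list, 15 were higher and none was lower, or 62.5% and 0%, against 7.26% and 5.77% of all genes. The median log2 change was 1.05. By pair, the median over the list was 1.35, 1.33, -0.15 and 1.42 in replicates 1 to 4, and so below 0 in replicate 3. Without replicate 3, 18 were higher and none lower, with a median of 1.26, and with the GC trend removed 15 were higher. In total RNA 14 of the 24 were higher.

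DDIT4, an inhibitor of mTORC1 signalling that is also a hypoxia gene, measured 66.9, 68.7, 595 and 49.8 CPM in DMSO replicates 1 to 4 and 804, 1156, 630 and 500 CPM in CID661578 replicates 1 to 4. DMSO replicate 3 lay within the range of the CID661578 libraries, and the other DMSO libraries lay far below it. The change was 2.90 ± 0.41 on the log2 scale, or 7.45-fold (adjusted p = 1.0e-04), and 3.65 without replicate 3 (adjusted p = 8.2e-09).

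ATF4, the transcription factor at the centre of the response, measured 50.4, 97.9, 525 and 55.4 CPM in DMSO and 250, 492, 679 and 189 CPM in CID661578. It was higher in each of the 4 replicate pairs, by 2.30, 2.32, 0.37 and 1.76. The combined change was 1.70 ± 0.24 (adjusted p = 7.0e-05) and 2.13 without replicate 3, and its processed copy ATF4P3, which can share reads with it, changed by 1.68 (2.24 without replicate 3).

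DDIT3, the pro-apoptotic factor CHOP, measured 37.5, 34.1, 233 and 25.9 CPM in DMSO and 189, 167, 338 and 199 CPM in CID661578 (log2 change 2.03 ± 0.26, adjusted p = 1.7e-05). ATF3, a factor induced by ATF4, measured 4.48, 5.99, 93.5 and 4.5 CPM in DMSO and 21.9, 41.9, 130 and 20.9 CPM in CID661578 (log2 change 1.87 ± 0.27, adjusted p = 1.2e-04). In both genes the groups overlapped through DMSO replicate 3 alone, whose value exceeded those of 3 CID661578 libraries. Without replicate 3 DDIT3 changed by 2.51 and ATF3 by 2.44.

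Further members, named after their values were seen, showed the same division of the DMSO libraries. TRIB3, a pseudokinase, measured 23.2, 26.3, 227 and 11.8 CPM in DMSO and 123, 207, 193 and 94.2 CPM in CID661578 (log2 change 2.08 ± 0.35). CHAC1, which degrades glutathione, and SESN2, a leucine sensor, changed by 2.07 and 2.05, and all 3 were lower in CID661578 replicate 3 than in DMSO replicate 3. Without replicate 3 the changes of TRIB3, CHAC1 and SESN2 were 2.78, 2.85 and 2.80. In VLDLR, the lipoprotein receptor, and CEBPG, a partner of ATF4, the groups did not overlap. CEBPG measured 11.5, 10.0, 15.8 and 8.83 CPM in DMSO and 24.4, 25.3, 27.0 and 23.8 CPM in CID661578 (log2 change 1.15 ± 0.20, adjusted p = 9.5e-04, and 1.27 without replicate 3). ASNS, asparagine synthetase, did not pass the test (0.28, adjusted p = 0.70), nor did it without replicate 3 (0.43, adjusted p = 0.69).

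**Figure D3:**
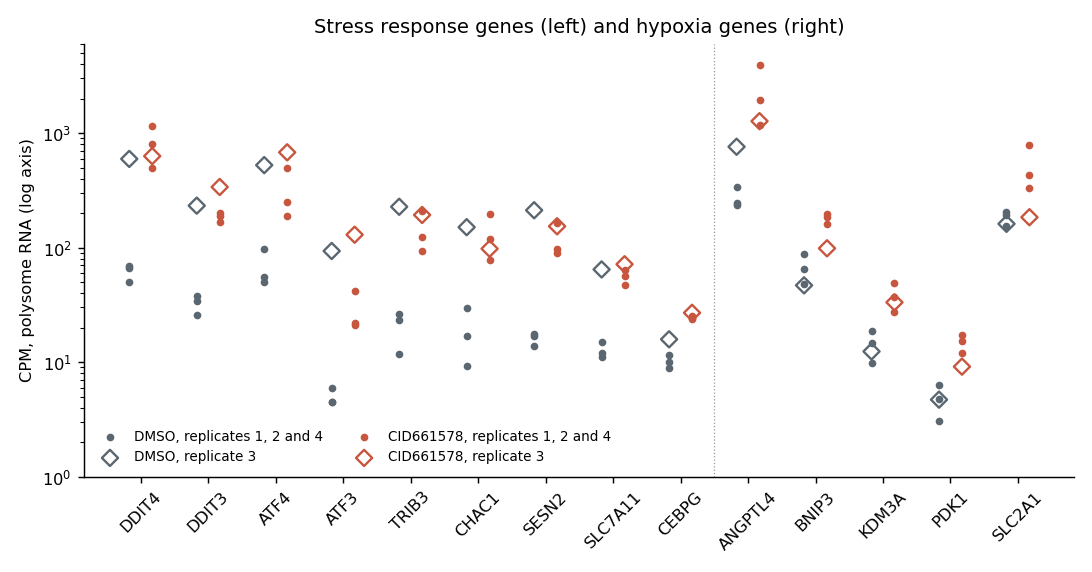
Polysome level (CPM, log axis) of 9 genes of the stress response (left of the dotted line) and 5 hypoxia genes (right) in the 8 libraries, with DMSO in grey, CID661578 in red and replicate 3 as open diamonds. The grey diamond lies near the red points for most genes on the left, as for DDIT4 with 595 CPM, and near the other grey points for BNIP3, KDM3A, PDK1 and SLC2A1.

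Most genes induced by low oxygen were also higher. They are targets of the hypoxia-inducible factor, which shifts metabolism from respiration to glycolysis and removes mitochondria by mitophagy. Of 15 tested genes of the list, 13 were higher and none lower, with a median of 1.15, and 11 were higher without replicate 3. The 13 are 86.7%, against 7.26% of all genes. With the GC trend removed 10 were higher, and in total RNA 5 were.

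ANGPTL4, a secreted inhibitor of lipoprotein lipase, measured 234, 337, 760 and 246 CPM in DMSO and 1952, 3960, 1271 and 1171 CPM in CID661578. The groups did not overlap, and replicate 3 gave the highest DMSO value. The change was 2.43 ± 0.30, or 5.38-fold (adjusted p = 1.1e-05).

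BNIP3, a mitophagy receptor, measured 64.9, 88.5, 46.8 and 48.3 CPM in DMSO and 160, 197, 98.6 and 186 CPM in CID661578 (log2 change 1.37 ± 0.17, adjusted p = 1.7e-05). KDM3A, a histone demethylase, measured 18.6, 9.85, 12.4 and 14.6 CPM in DMSO and 49.0, 27.2, 33.3 and 37.1 CPM in CID661578 (log2 change 1.41 ± 0.18, adjusted p = 1.9e-05). All 4 CID661578 libraries lay above the 4 DMSO libraries in both genes, and the changes of the 4 pairs of KDM3A, 1.38, 1.42, 1.39 and 1.32, were nearly equal. PDK1, which shuts pyruvate out of the citrate cycle, changed by 1.52 and ANKRD37 by 3.04, at no more than 8.37 CPM, and both were named after their values were seen. VEGFA, the vascular growth factor, changed by 1.45 at 6.06 CPM or less.

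Other large rises lay outside these lists or in smaller ones. DEPP1, a regulator of autophagy, measured 11.7, 8.01, 9.62 and 8.47 CPM in DMSO and 78.1, 124, 28.0 and 56.5 CPM in CID661578 (log2 change 2.75 ± 0.26, adjusted p = 1.6e-07). ARRDC3, an alpha-arrestin, measured 13.4, 9.76, 9.84 and 14.1 CPM in DMSO and 97.1, 47.6, 27.8 and 65.8 CPM in CID661578 (log2 change 2.23 ± 0.21, adjusted p = 1.1e-07). In both genes the groups were separate, with CID661578 replicate 3 the lowest of its group. HK2, the hexokinase of the first step of glycolysis, changed by 1.79 with pair values of 1.71, 1.76, 1.79 and 1.67. With the glucose carrier SLC2A1 (1.11) it was one of 2 of the 18 tested glycolysis genes that were higher, with none lower. That is 11.1% higher, against 7.26% of all genes.

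BIRC3, an inhibitor of apoptosis induced by NF-kB, measured 26.1, 22.2, 41 and 19.8 CPM in DMSO and 78.7, 65.2, 108 and 105 CPM in CID661578 (log2 change 1.73 ± 0.18, adjusted p = 1.1e-06). Of 12 tested genes of NF-kB and inflammation 4 were higher, or 33.3%, and none lower, against 7.26% and 5.77% of all genes. CXCL8, the chemokine interleukin-8, rose by 3.07 ± 0.40 from at most 1.39 CPM to between 2.41 and 9.41 CPM. ERRFI1, a feedback inhibitor of the EGF receptor, changed by 1.92 and RGS2, a regulator of G protein signalling, by 1.79, both without overlap.

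Of 21 tested immediate early and ERK feedback genes 8 were higher and none lower, with a median of 0.45. These 8 are 38.1%, against 7.26% of all genes. The phosphatases DUSP1 and DUSP5, which inactivate MAP kinases, changed by 1.21 and 1.44, KLF6 by 1.27 and PHLDA1 by 0.98. PHLDA1 alone of these 4 had no overlap, with 45.8 to 86.9 CPM in DMSO and 114 to 126 CPM in CID661578. Of 10 tested ID genes and SMAD targets 5 were higher, or 50%, with CCN2 and CCN1 at 1.24 and 0.79, and none was lower.

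Some of the chaperones induced by heat shock were lower. Of the nuclear-encoded genes at an average of log2 CPM 3 or more whose 4 pairs moved in 1 direction, HSPA1B and HSPA1A fell most. Of 13 tested genes of the list 5 were lower, 1 was higher and 7 did not pass the test, with a median of -0.38. The shares lower and higher were 38.5% and 7.69%, against 5.77% and 7.26% of all genes. HSPA1A measured 888, 964, 784 and 1853 CPM in DMSO and 302, 318, 250 and 271 CPM in CID661578 (log2 change -1.89 ± 0.19, adjusted p = 6.4e-07). HSPA1B, whose coding sequence is nearly the same and which can share reads with it, changed by -1.93 ± 0.23 (adjusted p = 7.9e-06). The groups did not overlap in either gene, and DMSO replicate 4 was the highest library. HSPA8, the constitutive member, measured 4454, 2785, 1975 and 5048 CPM in DMSO and 2289, 1192, 1188 and 1589 CPM in CID661578. The groups overlapped, while each of the 4 pairs was lower (log2 change -1.15 ± 0.18, adjusted p = 3.6e-04).

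BAG3, a cofactor of HSP70, changed by -0.60, and DNAJB1, an HSP40 named after its values were seen, by -0.47. Both lost the call with the GC trend removed (-0.39 and -0.35, adjusted p = 0.27 and 0.31). In the whole list 4 genes were then lower and none higher. CHORDC1, an HSP90 cochaperone likewise named after its values were seen, was the gene that was higher (0.49, adjusted p = 0.071), and it lost the call without replicate 3 and with the GC trend removed. HSP90AA1 (0.28) and HSP90AB1 (-0.40), the cytosolic HSP90 pair, did not pass the test and were also named after their values were seen. In total RNA HSPA1A, HSPA1B and HSPA8 changed by -1.62, -1.60 and -1.09 and were called lower there too.

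The promoters of these genes are shown because the called heat shock genes moved together, with the exception of CHORDC1. The letters GAANNTTC, which stand for a pair of inverted units of the heat shock element, were searched in RefSeq windows of 300 bases (250 before to 50 after a start, GRCh38.p14) and occurred in 6.77% of all 35116 windows and in 4.72% of the 14224 windows of tested genes. They read the same on both strands. Of 20 windows of the 13 heat shock genes 10 held them, in 9 genes, and 5 of the 6 called genes did. The windows below are 30 bases long with the match in capitals, given on the strand of the gene, and the letters were chosen after the values were seen.
HSPA1A, chr6:31815426-31815455, plus strand, match starting 106 bases before the start: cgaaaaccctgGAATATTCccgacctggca
HSPA1B, chr6:31827622-31827651, plus strand, 105 bases before: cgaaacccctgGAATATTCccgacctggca
HSPA8, chr11:123062168-123062197, minus strand, 50 bases before: ggccccttctgGAAGGTTCtaagatagggt
DNAJB1, chr19:14518426-14518455, minus strand, 47 bases before: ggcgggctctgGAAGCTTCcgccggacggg
The window of BAG3 held no match, and CHORDC1, which was higher, held 3. DNAJA1, HSP90AA1, HSP90AB1 and HSPB1, which were not called, also held a match. DNAJA1 and HSPB1 were named only for this match.

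For the stress response the letters TGATGNAA of the response element of C/EBP and ATF factors were searched on both strands in the same windows and occurred in 3.62% of all windows and 1.95% of those of tested genes. Of the 24 genes 20 had a window, and 6 of their 32 windows held a match, in 6 genes. Among 12 called genes with a window 3 did, and these 3 are printed to show where the letters lie. The letters were again chosen after the values were seen.
ATF3, chr1:212565205-212565234, plus strand, 191 bases before the start: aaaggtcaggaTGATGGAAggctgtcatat
CEBPG, chr19:33374060-33374089, plus strand, 42 bases before: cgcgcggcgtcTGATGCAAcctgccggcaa
CHAC1, chr15:40953251-40953280, plus strand, 209 bases before and read on the opposite strand: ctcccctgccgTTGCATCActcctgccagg
ASNS, PPP1R15B and SLC3A2, which did not pass the test, also held a match. PPP1R15B and SLC3A2 were named only for this match. A match of these letters is a description of the sequence and was not tested for binding.

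Genes of the complex that MNK acts on changed in both directions. Of 14 tested genes of eIF4F, the MNK kinases and the 4E-BP repressors 5 were higher and 2 lower, with a median of -0.08. These shares were 35.7% and 14.3%, against 7.26% and 5.77% of all genes. With the GC trend removed 2 were higher and 1 lower, and without the replicate block none was called. EIF4E, the cap-binding protein, measured 104, 94.0, 72.9 and 58.4 CPM in DMSO and 158, 120, 116 and 127 CPM in CID661578 (log2 change 0.69 ± 0.17, adjusted p = 0.017). Its groups did not overlap, and with the GC trend removed the change was 0.17 (adjusted p = 0.68). EIF4A2, an RNA helicase of the complex, changed by 0.74 ± 0.16 and kept its call with the trend removed (0.51, adjusted p = 0.093). EIF4G1, the main scaffold, measured 621, 646, 458 and 725 CPM in DMSO and 427, 493, 336 and 351 CPM in CID661578 (log2 change -0.61 ± 0.16, adjusted p = 0.031). Its groups overlapped, and it lost the call with the trend removed (-0.41, adjusted p = 0.22).

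EIF4G2, which lacks the site for eIF4E, changed by 0.45, the helicase inhibitor PDCD4 by 0.71, the repressor EIF4EBP1 by 0.47 and its relative EIF4EBP2 by -0.58. EIF4G2 and PDCD4 lost their calls with the trend removed (adjusted p = 0.32 and 0.45). MKNK2, which encodes the target, measured 6.94, 10.1, 12.8 and 7.48 CPM in DMSO and 5.22, 8.64, 7.96 and 6.02 CPM in CID661578 and did not pass the test (log2 change -0.41 ± 0.23, adjusted p = 0.33). MKNK1 did not pass it either (-0.34 ± 0.18, adjusted p = 0.31), nor did EIF4E2, EIF4B, EIF4H, EIF4G3 and EIF4EBP3, at -0.13, -0.16, -0.14, -0.02 and 0.15. EIF4A1 and EIF4E3 were listed at 0 in all 24 libraries and could not be tested. EIF4A1 lies inside the annotated read-through gene SENP3-EIF4A1, and reads that overlap several genes were not counted.

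Of the mRNAs that are known to depend on eIF4E, 4 of 13 tested were higher and 2 lower. These shares were 30.8% and 15.4%, against 7.26% and 5.77% of all genes, and with the GC trend removed 3 were higher and 1 lower. MCL1, a survival factor, changed by 0.99 ± 0.18 and NBN, of the DNA break repair complex, by 0.92 ± 0.20. NBN lost its call with the GC trend removed (0.52, adjusted p = 0.18). ODC1, the first enzyme of polyamine synthesis, measured 84.7 to 107 CPM in DMSO and 52.1 to 78.3 CPM in CID661578 (log2 change -0.51 ± 0.16, adjusted p = 0.060). Messenger RNAs of the translation machinery with a 5′ terminal oligopyrimidine tract moved little. Of 79 cytosolic ribosomal protein genes none was higher and 3 were lower, RPL28, RPL7A and RPL14 at -0.51, -0.45 and -0.42, and the median over the 79 was -0.04. Of 14 other such mRNAs 1 was higher, EIF3E at 0.61, and 2 were lower, EIF3L at -0.50 and PABPC1 at -0.46.

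Nuclear genes of mitochondrial proteins were mostly not called. Of 78 nuclear-encoded subunits of the respiratory chain 5 were higher and none lower, with a median of 0.18. NDUFA5, of complex I, had the lowest p of them and changed by 0.74 ± 0.18 (adjusted p = 0.020), and NDUFA6, COX6C and ATP5PF by 0.46, 0.44 and 0.49. Of 78 mitochondrial ribosomal proteins 6 were higher, such as MRPL1 (0.81) and MRPL42 (0.70), and 4 were lower, such as MRPL44 (-0.64) and MRPL23 (-0.80). Of 35 genes of mitochondrial RNA expression and protein quality control 4 were higher and 2 lower. FASTKD5, which is needed to process mitochondrial mRNAs that no tRNA borders, measured 22.6, 8.84, 28.3 and 34.0 CPM in DMSO and 15.2, 6.18, 13.5 and 14.1 CPM in CID661578 (log2 change -0.87 ± 0.20, adjusted p = 0.013). The groups overlapped through replicate 2, the lowest library of each. The protease subunit CLPX, the initiation factor MTIF2 and the protease SPG7 changed by 0.61, 0.54 and -0.51. In these 3 lists the counts fell to 1 higher and none lower, 2 and 1, and 1 and 1 without replicate 3. Called shares in these 3 lists were 6.41%, 7.69% and 11.4% higher and 0%, 5.13% and 5.71% lower, against 7.26% and 5.77% of all genes. With the GC trend removed the counts were 1 higher and none lower, 1 and 1, and none and 2. Of the genes named from these lists only MRPL44 and FASTKD5 kept their calls in that setting.

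**Figure D4:**
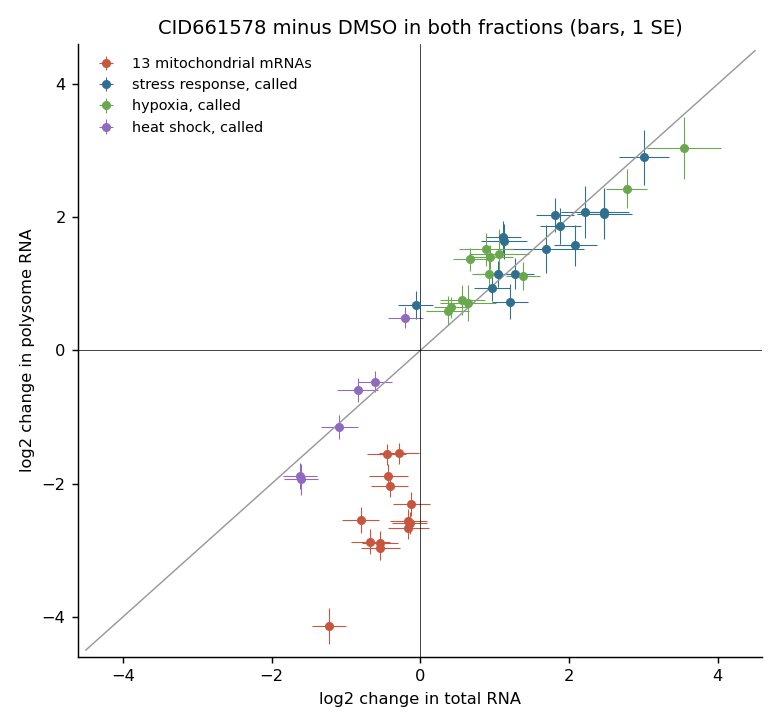
Log2 change with CID661578 in polysome-associated RNA (vertical axis) against that in total RNA (horizontal axis) for the 13 mitochondrial mRNAs (red) and for the called genes of the stress response (blue), hypoxia (green) and heat shock (purple) lists, with bars of 1 SE and the line of equal change. The mitochondrial mRNAs lie well below the line, with medians of -2.56 and -0.43, and DDIT4 lies near it at 2.90 and 3.00.

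Some of the nuclear-encoded genes with large changes in polysome-associated RNA were also called in total RNA, and most called genes were not. The median over the called genes that were tested in both was 0.19 in total RNA for those higher and -0.20 for those lower, and these genes had been picked for their polysome change. DDIT4 changed by 3.00 in total RNA, DDIT3 by 1.81, ATF3 by 1.88, ANGPTL4 by 2.78 and DEPP1 by 2.65, all called. BNIP3 and KDM3A changed by 0.67 and 0.94 there and did not pass the test. ATF4 changed by 1.12 in total RNA, and the difference from its polysome change was 0.59 (adjusted p = 0.57). No gene of the nuclear-encoded lists described passed the test of the difference, which does not show that the changes were equal. Against cercosporamide at its own dose, DDIT4, ATF4 and DDIT3 were higher with CID661578 by 2.95, 2.28 and 2.42, and HSPA1A differed by -1.58. EIF4E and MKNK2 differed from cercosporamide by -0.45 (adjusted p = 0.089) and 0.51 (adjusted p = 0.28).

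Genes of protein folding in the endoplasmic reticulum rose in part. Of 19 tested genes 6 were higher and 1 was lower, with a median of 0.27. These shares were 31.6% and 5.26%, against 7.26% and 5.77% of all genes. HERPUD1, of the degradation complex, measured 33.0, 25.4, 233 and 32.7 CPM in DMSO and 96.2, 62.9, 163 and 113 CPM in CID661578 (log2 change 1.04 ± 0.26, adjusted p = 0.019). DMSO replicate 3 was the highest of all 8 libraries, and the change was 1.54 without replicate 3. The chaperones HSPA5, DNAJB9 and HSP90B1 changed by 0.75, 0.69 and 0.51. With the GC trend removed DNAJB9 and HSP90B1 did not pass the test (0.30 and 0.34, adjusted p = 0.42 and 0.31). HSP90B1 did not pass it without replicate 3 either (adjusted p = 0.25). With the trend removed 3 of the 19 were higher and none lower. None of the 19 was called in total RNA, and 4 were higher without replicate 3.

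Genes of the cell cycle moved in both directions. The inhibitor CDKN1A changed by 0.89 ± 0.18 (adjusted p = 0.0044), and it was one of 3 of 10 tested p53 targets that were higher, with GADD45A (1.02) and RRM2B (0.52). That is 30%, against 7.26% of all genes. RRM2B did not pass the test with the GC trend removed (0.03, adjusted p = 0.96) or without replicate 3 (adjusted p = 0.36). In each of these settings 2 of the 10 were higher. E2F2, a factor of S-phase entry, measured 5.23 to 5.52 CPM in DMSO and 1.81 to 2.90 CPM in CID661578 (log2 change -1.21 ± 0.30, adjusted p = 0.021), and SKP2, which marks cell cycle inhibitors for degradation, changed by -0.89. ORC1, of the origin recognition complex, measured 25.7, 17.1, 23.4 and 30.7 CPM in DMSO and 10.2, 8.46, 9.95 and 11.6 CPM in CID661578 without overlap (log2 change -1.25 ± 0.19, adjusted p = 3.2e-04). Of 28 genes of DNA replication 5 were lower, or 17.9%, and none higher, against 5.77% and 7.26% of all genes. Among the 5 were MCM4 (-0.68), RRM2 (-0.54), GINS1 (-0.55) and FEN1 (-0.47), and 2 of the 28 were lower without replicate 3. Of 22 mitosis genes 3 were higher, or 13.6%, such as ECT2 (0.62) and CENPE (0.69). Another 4, or 18.2%, were lower, such as PLK1 (-0.79) and KIF20A (-0.63), and none of the 22 was called without replicate 3.

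Other falls among the 12 largest had no list in common. CYP1B1, a cytochrome P450 induced by the aryl hydrocarbon receptor, measured 86.8, 120, 147 and 156 CPM in DMSO and 46.9, 33.3, 36.1 and 35.4 CPM in CID661578 (log2 change -1.73 ± 0.19, adjusted p = 2.5e-06), and it changed by -1.71 in total RNA. ITPK1, an inositol phosphate kinase, measured 11.5, 12.9, 11.1 and 9.91 CPM in DMSO and 6.23, 2.91, 3.62 and 5.43 CPM in CID661578 (log2 change -1.36 ± 0.26, adjusted p = 0.0034). Both had separate groups, as had the antiviral RNA-binding protein ZC3HAV1 (-1.17), the kinesin KIF18B (-1.16) and LOC442443 (-1.25). SBF1, ADAMTS15 and FOXRED2 changed by -1.21, -1.18 and -1.11 with overlap.

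All 11 tested tubulin genes had a log2 change below 0, with a median of -0.35. Of these 4, or 36.4%, were called lower, against 5.77% of all genes. TUBB4B measured 835, 1010, 1984 and 1517 CPM in DMSO and 509, 871, 988 and 473 CPM in CID661578 (log2 change -0.90 ± 0.19, adjusted p = 0.0072), and TUBB3, TUBB2B and TUBB2A changed by -0.61, -0.50 and -0.49. Tubulin genes are similar in sequence and can share reads, and 1 of them was called without replicate 3. With the GC trend removed only TUBB4B was called, and the median of the 11 was -0.20. Of 14 NRF2 targets 2 were higher and 3 lower, or 14.3% and 21.4%, against 7.26% and 5.77% of all genes. Both ferritin chains, FTH1 and FTL, were lower at -0.83 and -0.53. FTL did not pass the test with the GC trend removed (-0.34, adjusted p = 0.34) or without replicate 3 (adjusted p = 0.29). HMOX1 was higher with the GC trend removed (0.95, adjusted p = 0.022) and without replicate 3 (1.12, adjusted p = 0.022). With the trend removed 1 of the 14 was higher and 1 lower.

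The remaining lists had shares of called genes above and below those of all genes, 7.26% higher and 5.77% lower. Of 33 genes of ribosome biogenesis 8 were higher and 5 lower, or 24.2% and 15.2%, with NOP58, of the box C/D snoRNP, at 0.77 ± 0.15 and DNTTIP2 at 0.75 ± 0.16. Of 14 snoRNA host genes 4 were higher, or 28.6%, and none lower, and GAS5 measured 36.4 to 52.0 CPM in DMSO and 81.3 to 93.8 CPM in CID661578 (log2 change 0.94 ± 0.16, adjusted p = 9.9e-04). Of 13 Notch genes 3 were higher and 2 lower, or 23.1% and 15.4%, with the ligand JAG1 at 0.90 and the coactivator MAML1 at -0.71, neither with overlap. Of 10 genes of polyamine metabolism 3 were higher and 1 lower. With the GC trend removed the higher and lower counts were 3 and 2 for ribosome biogenesis, 2 and 0 for snoRNA hosts, 1 and 0 for Notch and 1 and 1 for polyamine genes. Of 375 ZNF genes 24 were higher and 14 lower, which is 6.40% and 3.73%. Cytosolic aminoacyl-tRNA synthetases (2 higher and 1 lower of 20), proteasome genes (3 and 0 of 37), genes of cholesterol synthesis (1 and 1 of 19), of the extracellular matrix and integrins (4 and 2 of 42), replication-dependent histones (0 and 2 of 47) and long intergenic non-coding RNAs (2 and 2 of 77) were called in shares of at most 10% in either direction.

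**Figure D5:**
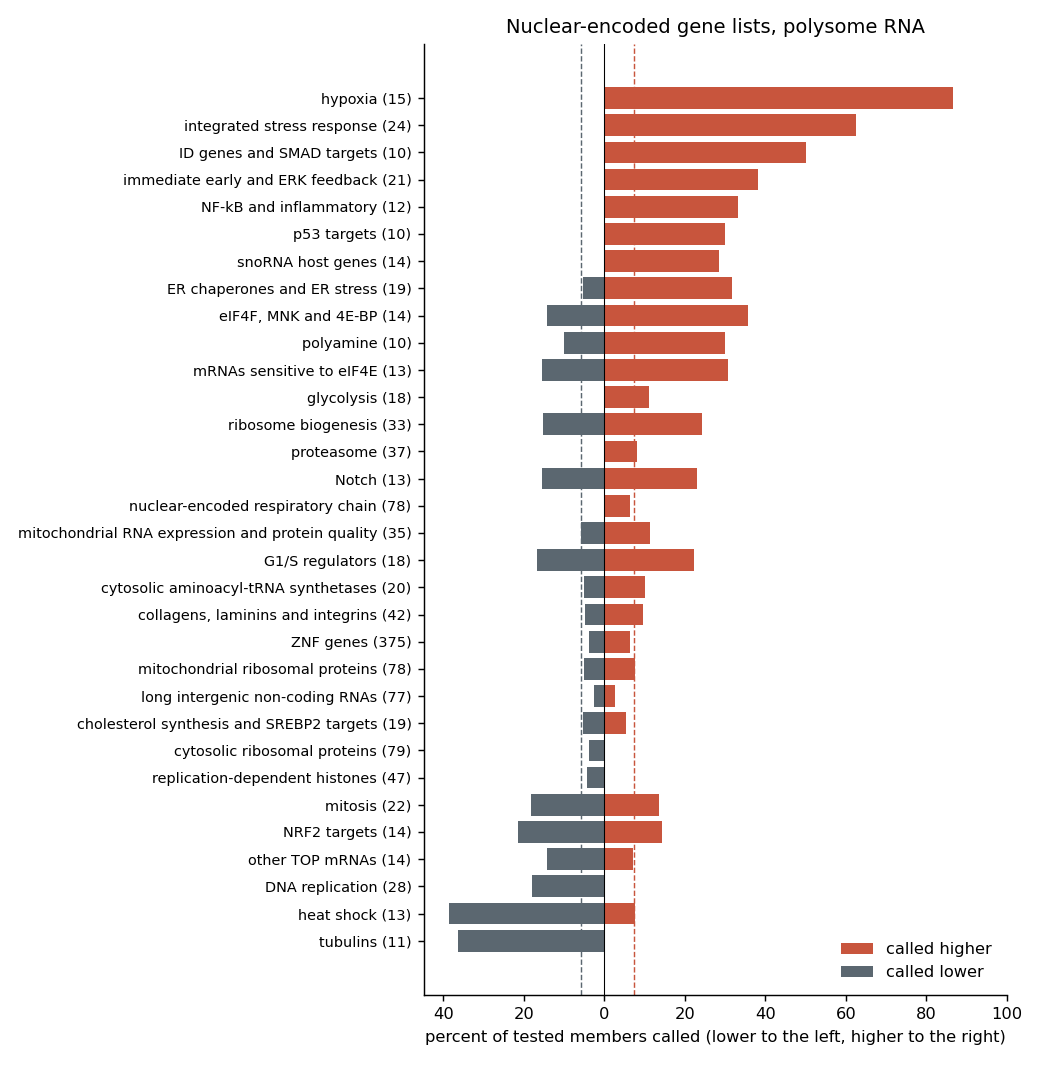
Percent of the tested members of each nuclear-encoded gene list that were called higher (red, to the right) or lower (grey, to the left) in polysome-associated RNA, with the number tested in brackets and dashed lines at the share of all genes called, 7.26% and 5.77%. The hypoxia and stress response lists have 86.7% and 62.5% of members higher, and heat shock genes have 38.5% lower.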

How the data were processed

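The authors pooled polysome fractions, prepared Smart-seq2 libraries from polysome-associated and total RNA and sequenced them in pairs. Reads were demultiplexed with bcl2fastq 2.20.0.422 and inspected with FastQC 0.11.8, per the labels. The authors removed rRNA reads with BBDuk, mapped what remained on hg38 (HISAT2) and assigned it to RefSeq genes with featureCounts at default settings, which ignore strand, drop reads over several genes and count multiple alignments at each place. Deposited values are raw counts per gene. Near-identical, overlapping and antisense genes are therefore uncertain.

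Libraries were grouped by their labels. Only genes with at least 1 read in every library of a comparison were kept, libraries were scaled with TMM, and groups were compared by quasi-likelihood in edgeR 4.0.16 (R 4.3.3), with the replicate number as a block and Benjamini-Hochberg adjustment over all genes tested at a threshold of 0.15. The methods of the study use the replicate as a batch, and all 4 same-number correlations of deviations exceeded 0.1. The correlations between replicates 1 and 4 (0.220 and 0.207) exceeded it too, so this check does not bear out the pairing of replicates 1 and 4. In the total RNA comparison and that with cercosporamide the same model was fitted to their 8 libraries. The interaction was fitted to 16 libraries with a term for each plate. CPM are counts scaled to the TMM library size. The precision of a gene is limited by 9268041 to 11428854 reads on genes per polysome library. Intervals and floors cover counting error only. Labels call the replicates biological. Between any pair of the 4 libraries of a group the chi-square was at least 13.26 times its degrees of freedom, so no pair within a group differed by as little as sampling noise. The scripts were tested on simulated data. GC content was taken from GENCODE v44 transcripts of GRCh38, for 94.45% of tested genes. Gene positions are those of RefSeq on GRCh38.p14.

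Members and gene lists were chosen with earlier results of these data known. Named genes were the 13 mitochondrial mRNAs, the 12 largest rises and falls among called nuclear-encoded genes at an average of log2 CPM 3 or more whose 4 pairs moved in 1 direction, the eIF4F, MNK and 4E-BP genes, up to 4 members of each list with the lowest p and the 3 lowest p of the interaction in each direction. Genes outside this rule are said to be. Alternatives were no replicate block, DESeq2 1.42.0, its size factors, scaling on nuclear-encoded genes, other filters, all 3 treatments in 1 fit, a stricter threshold, removal of each library's GC trend and each replicate left out.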

Additional observations from a re-analysis of the deposited data

Results flagged for a closer look

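Single libraries far from the other 3 of their group were sought with Dixon's test in 292 groups of 4, and 32 were found. Chance alone marks about 1 in 20 groups. Of the 32, 19 were DMSO replicate 3. The ratio of the gap to the range was 0.965 for DDIT4, 0.944 for DDIT3, 0.983 for ATF3, 0.8999 for ATF4, 0.885 for ATF4P3, 0.933 for TRIB3, 0.857 for CHAC1, 0.981 for SESN2, 0.929 for SLC7A11, which was named after its values were seen, and 0.964 for HERPUD1, all genes of the stress responses in which DMSO replicate 3 was high. It was also high in DUSP1 (0.837), DUSP5 (0.833), KLF6 (0.922), CCN2 (0.852), TGIF1 (0.854) and HMOX1 (0.870), and low in ND4 (0.863), MAML1 (0.871) and the share of the 13 mitochondrial mRNAs (0.864).

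Other DMSO libraries stood apart in COX1 (replicate 1, 0.8294), HSPA1A (replicate 4, 0.831), MRPL23 (replicate 2, 0.942) and NBN (replicate 4, 0.877). CID661578 replicate 3 stood apart in ND3 (0.884) and TRNN (0.913), replicate 1 in EIF4H (0.926), and replicate 2 in ANKRD37 (0.883), HSP90B1 (0.895), EIF3L (0.884), NDUFA5 (0.851), COX6C (0.982) and ODC1 (0.935).

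The change in polysome-associated RNA differed from that in total RNA, by the interaction test of edgeR, for 10 mitochondrial mRNAs, 1 mitochondrial tRNA and 1 nuclear copy named in the text. The difference on the log2 scale was -1.61 for ND2, -2.89 for ND3, -2.49 for ND5, -2.18 for ND6, -2.41 for CYTB, -2.36 for COX1, -1.73 for COX2, -2.32 for COX3, -2.43 for ATP6, -2.18 for ATP8, -2.49 for TRNS1 and -2.43 for MTCO1P12.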

How the results depend on the processing

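All 13 mitochondrial mRNAs stayed lower in polysome-associated RNA under each alternative run, with a median log2 change between -2.69 and -2.51. Their difference in share without 1 replicate was between -1.35 and -1.20 percentage points, and with 3 against 3 libraries the exact permutation test cannot go below p = 0.10. Counts of nuclear-encoded genes depended on the processing. Against 1049 higher and 798 lower, 69 and 20 passed without the replicate block (all of them also called with it), 331 and 265 with the GC trend removed, 471 and 235 at an adjusted p of 0.05, and 846 and 306 in a fit with all 3 treatments. Leaving out 1 replicate gave 532 (replicate 3) to 983 (replicate 2) higher and 282 (replicate 4) to 1036 (replicate 2) lower. DESeq2, its size factors, scaling on nuclear-encoded genes and the other filters gave 1064 to 1179 higher and 680 to 906 lower.

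In total RNA, without the block 6 nuclear-encoded genes were higher, 6 lower and 1 mitochondrial mRNA lower. Leaving out 1 replicate gave 34 to 124 higher, 9 to 45 lower and 1 to 3 mitochondrial mRNAs, with the low counts of 45 and 16 without replicate 2 and 34 and 9 without replicate 4. In the difference of both fractions, without the block 1 nuclear-encoded gene was higher, and leaving out 1 replicate gave 0 to 320 higher and 1 to 505 lower, the highest counts without replicate 1. Against cercosporamide 91 and 84 passed without the block, and leaving out 1 replicate gave 805 to 1368 higher and 781 to 1283 lower, with the lowest counts without replicate 2 and 989 higher without replicate 1.

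Single genes turned in direction as follows. With 1 replicate left out RNR2 was between -0.0054 (replicate 1) and 0.35. EIF4G3 was at 0.034 without the block, at 0.055 with all 3 treatments and between -0.13 and 0.19 (replicate 2) with 1 replicate left out. EIF4EBP3 was between -0.38 (replicate 4) and 0.59 with 1 left out, and CHORDC1 at -0.039 with the GC trend removed. Of 136 called genes named in the text, 45 were called without the block, 96 with the GC trend removed and 102 without replicate 3. The cause of these changes was not tested.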
